A study of Mus musculus with 8 samples.

Results

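The NRF2 targets and redox enzymes are 36 genes, chosen by their symbols from the 25237 genes of the deposited table, and all 36 were found and passed the filter on low values (a mean of at least 10 normalized counts over all libraries). They were compared between 4 libraries of muscle stem cells from mice given ketone bodies and 4 from mice given phosphate-buffered saline (PBS). Cells came from hindlimb muscle of male mice aged 2 to 4 months and were sorted for VCAM1 and against the endothelial marker CD31, the leukocyte marker CD45 and Sca1. No genetic change is named for either group. The strain entries read C57BL/6 for PBS and C57BL/7, C57BL/8 and C57BL/9 for ketone, so if they name strains, strain and treatment cannot be told apart. The sources used here give neither the dose nor the length of the treatment, and do not say whether each library is its own animal. The p-values therefore rest on library-to-library spread, of a gene itself and of genes at a like level, part of which may be technical.

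NRF2, encoded by Nfe2l2, is a transcription factor that is held by KEAP1 and broken down until oxidants or electrophiles modify KEAP1. It then enters the nucleus, pairs with a small MAF protein and binds antioxidant response elements near genes for glutathione synthesis, thioredoxin reduction, quinone reduction, heme breakdown and iron storage. Superoxide dismutases remove superoxide, while catalase, glutathione peroxidases and peroxiredoxins remove peroxides. NADPH oxidases make superoxide or hydrogen peroxide. In muscle stem cells this system is known for its part in keeping oxidants low during quiescence and in early activation.

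The element's core, TGACNNNGC, was searched on both strands of RefSeq promoter windows of GRCm38.p6, each 250 bases before to 50 after a gene's start. A window was at hand for 29 of the 36 genes, and 8 of these (27.6%) held a match, against 16.8% of the 10999 tested genes with a window. The 8 matches are shown because they are the places in these windows where the letters of the element occur, and the capitals mark the match. Each is written 5′ to 3′ on the strand of its gene, and in all but Me1 and Nfe2l2 the core reads on the opposite strand.
Nfe2l2, chr2:75704865-75704913, minus strand: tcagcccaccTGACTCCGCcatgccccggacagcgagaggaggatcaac
Me1, chr9:86695902-86695930, minus strand: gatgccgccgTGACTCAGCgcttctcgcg
Gclm, chr3:122245393-122245461, plus strand: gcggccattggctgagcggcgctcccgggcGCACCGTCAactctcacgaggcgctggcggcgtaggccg
Txnrd1, chr10:82859084-82859152, plus strand: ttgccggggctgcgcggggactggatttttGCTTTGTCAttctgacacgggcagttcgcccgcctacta
Srxn1, chr2:152105542-152105570, plus strand: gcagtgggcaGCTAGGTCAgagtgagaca
Prdx1, chr4:116685436-116685504, plus strand: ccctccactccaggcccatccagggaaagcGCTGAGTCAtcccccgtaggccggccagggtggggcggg
Sod1, chr16:90220676-90220744, plus strand: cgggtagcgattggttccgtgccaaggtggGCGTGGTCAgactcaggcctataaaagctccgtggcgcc
Mgst1, chr6:138140441-138140509, plus strand: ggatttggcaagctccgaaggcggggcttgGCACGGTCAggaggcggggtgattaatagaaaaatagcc
Prdx1 and Me1 carry the same 9 letters, TGACTCAGC, read on opposite strands relative to their genes. Of the 8 genes with a match, Mgst1 alone passed the test between the groups. A match describes the letters of the window, and no match says only that these letters are not in it. The RefSeq starts used for the windows can differ from the ends of the gene spans given below. The matches of Txnrd1, Mgst1 and Srxn1 lie inside the spans given for these genes.

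Of the 36 genes 10 were higher and 2 lower in the ketone libraries at an adjusted p below 0.05, by limma across all 14022 genes tested (two-sided, Benjamini-Hochberg), and 24 did not pass. Among all tested genes 12.8% were higher and 12.8% lower, so the share of higher genes was above the background here (27.8%) and the share of lower genes was below it (5.56%). The median log2 change was 0.22 over the 36 genes and -0.01 over all tested genes. The groups did not overlap for 13 of the 36 genes (36.1%), against 28.3% of all tested genes. The higher genes were Nox4, Mgst1, Fth1, Nqo1, Sod3, Gpx1, Txn1, Gpx4, Ftl1 and Gclc, and the lower ones were Abcc1 and Prdx2. The largest change was that of the NADPH oxidase Nox4, 18.9-fold by the means, and Mgst1 was 2.88-fold, Fth1 2.07-fold, Gpx1 1.86-fold and Sod3 1.83-fold higher. These 5 kept their calls under all 21 alternative settings, while each of the other 7 lost its call under at least 1 of them. The same was not counted over all genes. With the recovered reads 12 were higher and 1 lower by edgeR (13.7% and 12% of all tested genes) and 14 and 4 by DESeq2 (16.1% and 13.7%). In such bulk RNA, fewer cells of a type and less RNA per cell cannot be told apart. Counts over all genes also moved when a library was left out. Without PBS library 1 the limma counts were 6 higher and 0 lower, beside 9.04% and 7.7% of all genes tested in that fit. Without PBS library 3 they were 7 and 0 (all genes 9.55% and 8.46%), and without PBS library 4 they were 6 and 0 (9.92% and 8.85%). Without ketone library 1 they were 12 and 4 (14% and 15.3%), and without ketone library 4 they were 8 and 1 (10.8% and 11.5%).

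**Figure D1:**
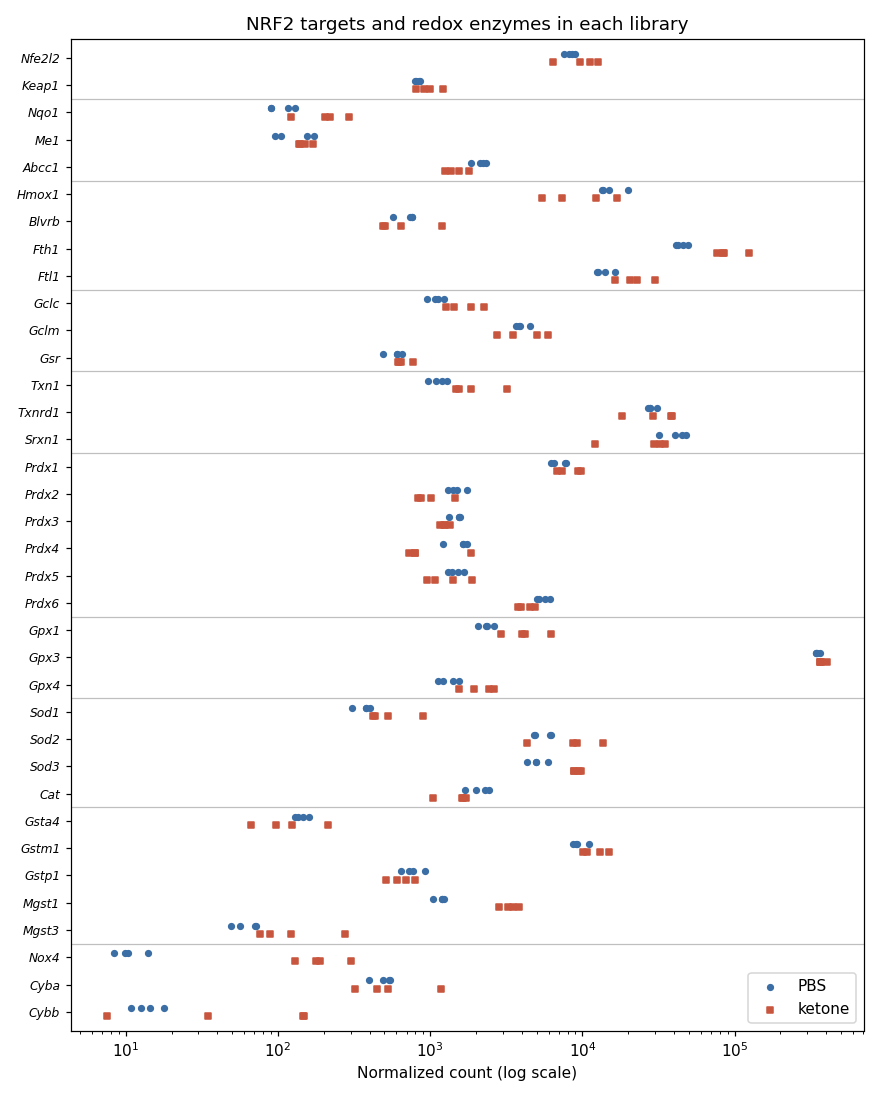
Normalized counts of the 36 genes in each library on a log scale, grouped by role with lines between roles, with circles for the 4 PBS libraries and squares for the 4 ketone libraries. Gpx3 lies far to the right of the others at 344191 to 407296, and the ketone values of Nox4 (129 to 304) lie far from its PBS values (8.40 to 13.9).

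**Figure D2:**
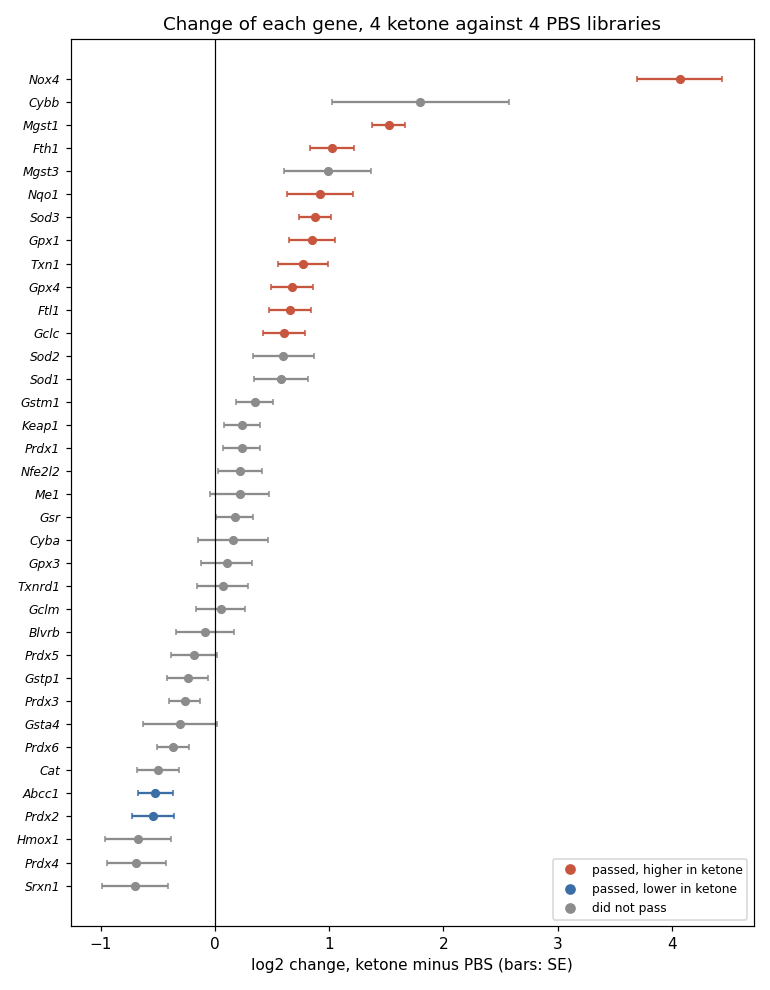
The log2 change of each of the 36 genes, ketone minus PBS, on the log2(normalized count + 1) scale, with bars for the standard error and color for the test over all genes. Nox4 stands at 4.07, the other genes lie between -0.70 and 1.80, and 24 of the 36 changes are above 0, beside 6887 of all 14022 tested genes.

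Libraries held 19174005 to 36870537 recovered reads. The group's libraries were less alike in ketone than in PBS, with a median SD of log2 values of 0.40 against 0.17 over the 36 genes, and the SD was larger in ketone for 32 of 36 (88.9%), against 80.5% of all tested genes. Markers of other cell types moved with the groups, and their part in the results below was not tested. All 17 endothelial markers were higher in ketone, with a sum of 10223 to 12718 normalized counts in PBS and 36839 to 89010 in ketone, lowest in ketone library 3, and Aqp1, the most abundant of them, had a log2 change of 3.04. Of 16 macrophage and neutrophil markers 4 were higher and 0 lower, with sums of 908 to 1179 and 1297 to 6845, and Lyz2, the most abundant, had a log2 change of 1.96, with ketone library 2 inside the PBS range. Its call was lost without PBS library 2 or 3 or ketone library 4 (limma adjusted p = 0.053, 0.0518 and 0.0525). Of 18 myofiber markers 11 were higher and 2 lower, with sums of 11955 to 16797 and 6902 to 38351, the highest in ketone library 1, although Actn3, the most abundant, had a log2 change of -2.07 and was lower. Of the 11 Schwann cell markers 7 were higher and 0 lower, with sums of 14637 to 15731 and 17457 to 23001, and Pmp22 led with a log2 change of -0.11 that did not pass. Of the 15 smooth muscle and pericyte markers 10 were higher and 2 lower, with sums of 92677 to 98275 and 81235 to 96332. Des and Notch3, which are also on the muscle stem cell list, make up most of that sum, and the mean log2 level over the list was 9.25 to 9.38 in PBS and 10.04 to 10.83 in ketone. Of the 16 fibro-adipogenic markers 7 were higher and 4 lower, with sums of 127154 to 171605 and 79173 to 134238, and the log2 change of Gsn, the most abundant, was -0.51 and did not pass. Col3a1, the next in PBS at a mean of 45498, had a log2 change of -3.46. The sum rests much on these genes. Over this list the median log2 change was 0.61, and the mean log2 level was 9.665 to 10.216 in PBS and 10.066 to 10.790 in ketone. Of 11 erythroid markers only 2 could be tested and 0 passed. Hba-a1, Hba-a2, Hbb-bs and Hbb-bt were listed at 0 in every library, and Ank1, the most abundant, had a log2 change of -0.36. Muscle stem cell markers were present in every library, but 8 of 15 were lower and 0 higher in ketone, with sums of 456970 to 479493 and 298152 to 420137. Sdc4, the most abundant of these, had a log2 change of 0.09 and did not pass, as did Des of the muscle stem cell and smooth muscle lists at 0.03. Of the sort markers, Vcam1 fell by 0.85 on the log2 scale, with ketone library 4 inside the PBS range. Its call was lost without PBS library 1, 2 or 3 (limma adjusted p = 0.0508, 0.0549 and 0.0645), without ketone library 2 (0.0501) and without ketone libraries 1 and 2 (0.0627). Pecam1 (CD31) and Ly6a (Sca1) rose by 2.45 and 3.10, and Ptprc (CD45) did not pass (log2 change 1.23, adjusted p = 0.217 by limma), with ketone library 1 at 299 and the rest of that group at 21.1 to 30.1.

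Levels between genes are compared here per kilobase of exon in the GENCODE annotation of the same build, since longer transcripts give more fragments. The length is that of all annotated exons of a gene together, which can exceed that of the transcript present. The order therefore depends on the length used. By plain PBS means Fth1 (44652, with 3469 exon bases) was above Srxn1 (41379, with 2820). Gpx3, which encodes the secreted glutathione peroxidase, was by far the most abundant of the 36, at 193027 normalized counts per kilobase in PBS and 207638 in ketone. By plain normalized counts it ranked between the second and the fifth of all genes in every library and took 1.25% to 1.55% of each library's total. Srxn1, Fth1, Ftl1 and Hmox1 came next in PBS, at 14673, 12872, 10375 and 8811 per kilobase, and the PBS ranges of neighbours in this order overlapped. In ketone the order of the genes after Gpx3 was Fth1 at 26620, Ftl1 at 16657 and Srxn1 at 9640 per kilobase. Gstm1 at 6450 and Txnrd1 at 4000 per kilobase followed in PBS, each apart from its neighbours. From Gpx1 at 1618 down to Cyba at 475 per kilobase the PBS range of every gene overlapped that of the next. Cybb and Nox4 were the lowest in PBS, at 2.39 and 1.25 per kilobase.

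The regulators themselves did not pass. Nfe2l2 (chromosome 2, 75675513 to 75704641), the gene of NRF2, stood at 7590, 8144, 8999 and 8550 normalized counts in PBS libraries 1 to 4 and at 6362, 11254, 9693 and 12643 in ketone libraries 1 to 4. Ketone library 1 lay below every PBS library and the other ketone libraries lay above them. The log2 change was 0.22 ± 0.19 (SE, n = 4 per group throughout) with limma adjusted p = 0.43, and without ketone library 1 it was 0.42 with limma adjusted p = 0.0258. Keap1 (chromosome 9, 21229730 to 21239361), which encodes the inhibitor that holds NRF2, stood at 851, 839, 805 and 793 in PBS and at 1221, 806, 995 and 906 in ketone. The PBS libraries were close together, ketone library 1 was the highest, and the log2 change of 0.24 ± 0.16 did not pass (limma adjusted p = 0.297).

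Among enzymes that NRF2 is known to drive, Nqo1 was higher, Abcc1 was lower and Me1 did not pass. Nqo1 (chromosome 8, 107388225 to 107403206), which encodes a quinone reductase used widely as a readout of NRF2, stood at 129, 90.3, 89.3 and 116 normalized counts in PBS and at 293, 203, 122 and 219 in ketone. Only ketone library 3 lay within the PBS range, and the log2 change was 0.92 ± 0.29 (limma adjusted p = 0.03). The call was lost without PBS library 2, 3 or 4 (limma adjusted p = 0.0796, 0.0883 and 0.0564) and without ketone library 1 or 4 (0.0677 and 0.0674). It was also lost with no filter (0.0562), with quantile normalization (0.0736) and without ketone libraries 1 and 2 together (0.118). Abcc1 (chromosome 16, 14361558 to 14475737), an exporter of glutathione conjugates, stood at 2220, 1846, 2117 and 2338 in PBS and at 1365, 1255, 1548 and 1800 in ketone. Every ketone library was below every PBS library, with a log2 change of -0.52 ± 0.15 (limma adjusted p = 0.0239). The call was lost without PBS library 1, 3 or 4 (limma adjusted p = 0.0812, 0.065 and 0.0841), with quantile normalization (0.0549) and without ketone libraries 1 and 2 (0.0575). Me1, the cytosolic malic enzyme that makes NADPH, ranged from 96.0 to 171 in PBS and from 136 to 170 in ketone (log2 change 0.22 ± 0.26, limma adjusted p = 0.574).

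Both ferritin chains were higher, and neither heme-degrading enzyme passed. Fth1 (chromosome 19, 9980598 to 9985098), the ferritin heavy chain that oxidizes iron for storage, stood at 41383, 49086, 45494 and 42644 normalized counts in PBS and at 84811, 124058, 76975 and 83534 in ketone. The lowest ketone library was well above the highest PBS library, with a log2 change of 1.03 ± 0.19 (limma adjusted p = 0.00165). Ftl1 (chromosome 7, 45457944 to 45459884), the light chain, stood at 12733, 16244, 14144 and 12486 in PBS and at 22743, 29804, 16348 and 20387 in ketone. Ketone library 3 was only just above PBS library 2, and the log2 change of 0.66 ± 0.19 passed (limma adjusted p = 0.02) but not without PBS library 1, 3 or 4 (limma adjusted p = 0.0718, 0.0522 and 0.0694). Hmox1 (chromosome 8, 75093621 to 75100589), heme oxygenase 1, which opens the heme ring and frees its iron, stood at 13412, 14886, 19789 and 13623 in PBS and at 5402, 16917, 7342 and 12361 in ketone. Ketone library 2 lay within the PBS range and the other ketone libraries below it. The log2 change was -0.67 ± 0.29 and did not pass (limma adjusted p = 0.104), while without ketone library 2 it was -0.95 and passed (limma adjusted p = 0.0146). Blvrb, a biliverdin reductase, ranged from 570 to 764 in PBS and stood at 1189, 645, 492 and 502 in ketone libraries 1 to 4 (log2 change -0.09 ± 0.25, limma adjusted p = 0.828). Its direction turned without ketone library 3 or 4, and without ketone libraries 1 and 2 together it was -0.49 and passed (limma adjusted p = 0.0304).

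In glutathione synthesis the catalytic subunit was higher, and the modifier subunit did not pass. Gclc (chromosome 9, 77754535 to 77794485), the catalytic subunit of the rate-limiting glutamate-cysteine ligase, stood at 1081, 959, 1116 and 1236 normalized counts in PBS and at 1274, 2250, 1439 and 1857 in ketone. The groups did not overlap, though ketone library 1 was close to PBS library 4, and the log2 change was 0.60 ± 0.18 (limma adjusted p = 0.0272). The call was lost without PBS library 1, 2 or 3 (limma adjusted p = 0.0741, 0.0802 and 0.0646) and without ketone library 2 or 4 (0.0581 and 0.0682). Gclm (chromosome 3, 122245557 to 122270732), the modifier subunit, stood at 3894, 3831, 4537 and 3677 in PBS and at 2729, 5902, 3518 and 5045 in ketone. Ketone libraries lay on both sides of the PBS range, and the log2 change was 0.05 ± 0.21 (limma adjusted p = 0.885), turning in sign without ketone library 2 or 4. Gsr, glutathione reductase, which returns oxidized glutathione to its reduced form, ranged from 492 to 648 in PBS and from 614 to 774 in ketone (log2 change 0.17 ± 0.16, limma adjusted p = 0.466).

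In the thioredoxin system only thioredoxin itself passed. Txn1 (chromosome 4, 57943373 to 57956411), the small protein that reduces disulfides, stood at 969, 1281, 1201 and 1087 normalized counts in PBS and at 1550, 3212, 1487 and 1852 in ketone. All ketone libraries were above all PBS libraries and ketone library 2 was the highest, with a log2 change of 0.77 ± 0.22 (limma adjusted p = 0.0201). The call was lost without PBS library 1 or 4 (limma adjusted p = 0.0703 and 0.055). Txnrd1 (chromosome 10, 82833951 to 82897712), the cytosolic thioredoxin reductase and a selenoprotein, stood at 27807, 26898, 30902 and 27775 in PBS and at 18232, 38049, 28917 and 38728 in ketone. Ketone library 1 was far below PBS and ketone libraries 2 and 4 above it, and the log2 change of 0.07 ± 0.22 did not pass (limma adjusted p = 0.846) and turned in sign without ketone library 2 or 4. Srxn1 (chromosome 2, 152105516 to 152111376), sulfiredoxin, which repairs over-oxidized peroxiredoxins, stood at 40736, 47545, 45433 and 31801 in PBS and at 12096, 32560, 29399 and 34681 in ketone. Ketone library 1 had less than any other library and PBS library 4 lay among the other ketone libraries, with a log2 change of -0.70 ± 0.29 (limma adjusted p = 0.0918). Srxn1 was lower with quantile normalization (limma adjusted p = 0.0344).

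Of the 6 peroxiredoxins 0 were higher and 1 was lower, and 5 of the 6 had a negative log2 change, with a median of -0.32. Of all 14022 tested genes 12.8% were higher and 12.8% lower, and 6887 had a positive log2 change. Prdx2 (chromosome 8, 84969587 to 84974834), a cytosolic peroxiredoxin abundant in red cells, stood at 1411, 1737, 1498 and 1305 normalized counts in PBS and at 1453, 835, 871 and 1005 in ketone. Ketone library 1 lay within the PBS range and the others below it. The log2 change of -0.54 ± 0.19 passed narrowly (limma adjusted p = 0.0462), and it did not pass without any 1 of the libraries other than ketone library 1 (limma adjusted p from 0.0655 to 0.128) or with the replicate number as a block (limma adjusted p = 0.0538). It also missed with no filter (0.0582), with equal totals or quantile normalization (0.106 in both) and by edgeR (0.065). Its exons share 173 bases with Junb and 177 with Rnaseh2a on the opposite strand, and the sources used here do not say whether counting used strand. Prdx4 (chromosome X, 155323918 to 155340754), the form of the endoplasmic reticulum, stood at 1751, 1221, 1643 and 1653 in PBS and at 1853, 729, 797 and 797 in ketone. Ketone library 1 was the highest of all and the other ketone libraries the lowest, and the log2 change of -0.69 ± 0.26 did not pass (limma adjusted p = 0.0656). Prdx4 was lower without ketone library 1 (limma adjusted p = 0.000582) and with the replicate number as a block (0.0229). Prdx6, which also reduces phospholipid peroxides, ranged from 5040 to 6162 in PBS and from 3786 to 4845 in ketone, without overlap. Its log2 change of -0.37 ± 0.14 did not pass by limma (limma adjusted p = 0.0722) but did by DESeq2 (adjusted p = 0.0447). The mitochondrial Prdx3 ranged from 1330 to 1574 in PBS and from 1157 to 1340 in ketone, a log2 change of -0.26 ± 0.14 (limma adjusted p = 0.176). Prdx5, found in mitochondria and peroxisomes and sharing 409 exon bases with Trmt112 on the opposite strand, ranged from 1307 to 1663 in PBS and from 950 to 1889 in ketone, with a log2 change of -0.19 ± 0.20 (limma adjusted p = 0.529). Prdx5 was lower with library weights (limma adjusted p = 0.0476). Without ketone libraries 1 and 2 its log2 change was -0.53 and passed (limma adjusted p = 0.00911). Prdx1, the abundant cytosolic form, ranged from 6192 to 7806 in PBS and from 6835 to 9787 in ketone (log2 change 0.23 ± 0.16, limma adjusted p = 0.306).

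The 3 glutathione peroxidases, all selenoproteins, had positive log2 changes and 2 of them passed. Of all 14022 tested genes 6887 had a positive log2 change and 12.8% were higher. Gpx1 (chromosome 9, 108338903 to 108340343), the cytosolic and mitochondrial enzyme, stood at 2355, 2604, 2323 and 2047 normalized counts in PBS and at 6248, 4194, 2906 and 4031 in ketone. Every ketone library was above every PBS library, ketone library 1 the most and ketone library 3 the least, with a log2 change of 0.85 ± 0.20 (limma adjusted p = 0.00695). Gpx4 (chromosome 10, 80047166 to 80056439), which reduces lipid peroxides in membranes and so guards against ferroptosis, stood at 1130, 1551, 1409 and 1215 in PBS and at 2630, 2435, 1953 and 1548 in ketone. Ketone library 4 was level with PBS library 2 and the others were higher. The log2 change was 0.67 ± 0.18 (limma adjusted p = 0.0159), and the call was lost without PBS library 1 or 4 (limma adjusted p = 0.0647 and 0.0529) and without ketone libraries 1 and 2 (0.0582). Gpx3 (chromosome 11, 54902453 to 54910377) stood at 344191, 344893, 361089 and 349659 in PBS and at 364206, 407296, 371379 and 362906 in ketone. The groups did not overlap, but their means differed by a factor of only 1.08. The log2 change of 0.10 ± 0.22 did not pass (limma adjusted p = 0.765). Gpx3 itself varied little, with an SD of 2.23% of its mean in PBS, the least of the 36, and of 5.55% in ketone. The limma SE and p-value also draw on the spread of other genes at a like level, so this SE is not that of Gpx3 alone.

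Of the superoxide dismutases, the secreted one passed. Sod3 (chromosome 5, 52363791 to 52371418), the extracellular enzyme, stood at 4964, 5972, 4339 and 4931 normalized counts in PBS and at 8851, 9777, 9424 and 8818 in ketone. The ketone libraries were close together, with an SD of 5.05% of their mean, and all were above PBS, with a log2 change of 0.88 ± 0.14 (limma adjusted p = 0.000548). Sod2 (chromosome 17, 13006846 to 13040063), the mitochondrial enzyme, stood at 4805, 4904, 6239 and 6122 in PBS and at 4336, 9257, 8612 and 13736 in ketone. Ketone library 1 was below every PBS library and the other 3 were above, and the log2 change of 0.60 ± 0.27 did not pass (limma adjusted p = 0.119), and without ketone library 1 it was 0.91 (limma adjusted p = 0.00224). Sod2 also passed with the replicate number as a block (limma adjusted p = 0.0438) and by DESeq2 (adjusted p = 0.0292). Sod1, the cytosolic copper-zinc enzyme, ranged from 308 to 400.1 in PBS and from 423 to 902 in ketone, without overlap. Its log2 change of 0.58 ± 0.23 did not pass by limma (limma adjusted p = 0.087) but did by DESeq2 (adjusted p = 0.0426). Cat (chromosome 2, 103453849 to 103485160), the peroxisomal catalase, stood at 2295, 1701, 2008 and 2443 in PBS and at 1642, 1044, 1726 and 1616 in ketone. Ketone library 3 lay just inside the PBS range and the others below it. Its log2 change of -0.50 ± 0.18 did not pass (limma adjusted p = 0.0621). Cat passed without PBS library 2 (limma adjusted p = 0.0497), without ketone library 1 or 3 (0.0467 and 0.0478) and with the replicate number as a block (0.0341). It also passed by DESeq2 (adjusted p = 0.0478).

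Of the 5 glutathione transferases, which join glutathione to electrophiles, 1 was higher and 0 were lower, beside 12.8% of all tested genes in each direction. Mgst1 (chromosome 6, 138140316 to 138156755), a membrane-bound transferase with peroxidase activity, stood at 1193, 1230, 1191 and 1042 normalized counts in PBS and at 3831, 3233, 3511 and 2849 in ketone. The lowest ketone library was far above the highest PBS library, and the log2 change was 1.52 ± 0.14 (limma adjusted p = 7.52e-06). Mgst3, its membrane-bound relative, stood at 49.3, 71.4, 56.4 and 71.0 in PBS and at 275, 88.0, 76.7 and 121 in ketone. The groups did not overlap but ketone library 1 stood far above the rest, and the log2 change of 0.99 ± 0.38 did not pass (limma adjusted p = 0.0717). It passed without ketone library 2 or 3 (limma adjusted p = 0.0473 and 0.0352). With all libraries Mgst3 passed on the recovered reads by edgeR (adjusted p = 0.0476) and by DESeq2 (adjusted p = 0.0206). Gstm1 (chromosome 3, 108012255 to 108017973), the most abundant transferase, stood at 9213, 11077, 9064 and 8650 in PBS and at 10118, 15034, 10708 and 13006 in ketone. PBS library 2 lay among the ketone libraries, and the log2 change of 0.35 ± 0.16 did not pass (limma adjusted p = 0.13), but passed without ketone library 1 (limma adjusted p = 0.0377). Gstm1 and Gstp1 have close relatives that can share reads, so their values are uncertain. Of their relatives, Gstm2, Gstm4, Gstm5, Gstm6 and Gstm7 were lower, with log2 changes from -1.92 to -0.78, Gstm3 and Gstp2 did not pass, and Gstp3 was higher from 0 to 3.08 normalized counts in PBS. Gstp1 ranged from 644 to 921 in PBS and from 516 to 798 in ketone (log2 change -0.24 ± 0.18, limma adjusted p = 0.364). Gsta4, which clears the lipid aldehyde hydroxynonenal, ranged from 128 to 159 in PBS and from 66.6 to 212 in ketone (log2 change -0.31 ± 0.32, limma adjusted p = 0.518).

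The NADPH oxidase subunits belong to enzymes that make superoxide or hydrogen peroxide. Nox4 (chromosome 7, 87246096 to 87398710), a catalytic subunit known from endothelial cells, kidney and smooth muscle, stood at 9.86, 8.40, 10.3 and 13.9 normalized counts in PBS and at 129, 189, 178 and 304 in ketone. The lowest ketone library was far above the highest PBS library, with a log2 change of 4.07 ± 0.38 (limma adjusted p = 6.91e-06), and the PBS values rest on as few as 8 reads. The summed endothelial markers were 75200, 89010, 36839 and 77539 in ketone libraries 1 to 4 and at most 12718 in PBS. Of the 15 smooth muscle and pericyte markers 10 were higher and 2 lower. Their mean log2 level was 9.25 to 9.38 in PBS and 10.74, 10.16, 10.04 and 10.83 in ketone libraries 1 to 4. The part of either cell type in the Nox4 values was not tested. Cybb (chromosome X, 9435252 to 9487771), the oxidase subunit of phagocytes, stood at 10.8, 17.9, 14.4 and 12.5 in PBS and at 146, 7.51, 34.8 and 148 in ketone. Ketone libraries 1 and 4 were high, ketone library 3 lay between and ketone library 2 was below every PBS library, and the log2 change of 1.80 ± 0.77 did not pass (limma adjusted p = 0.106). Without ketone library 2 it was 2.66 and passed (limma adjusted p = 0.00346). With all libraries Cybb passed on the recovered reads by edgeR (adjusted p = 0.0211) and by DESeq2 (adjusted p = 0.00152). The summed macrophage and neutrophil markers were 6845, 1297, 2316 and 4838 in ketone libraries 1 to 4, and their part in the Cybb values was not tested. Cyba (chromosome 8, 122424776 to 122432930), the membrane partner of both catalytic subunits, stood at 492, 397, 540 and 547 in PBS and at 1171, 527, 323 and 449 in ketone. Ketone library 1 was the highest of all and ketone library 3 the lowest, with a log2 change of 0.16 ± 0.31 (limma adjusted p = 0.741) that turned to -0.21 without ketone library 1.

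**Figure D3:**
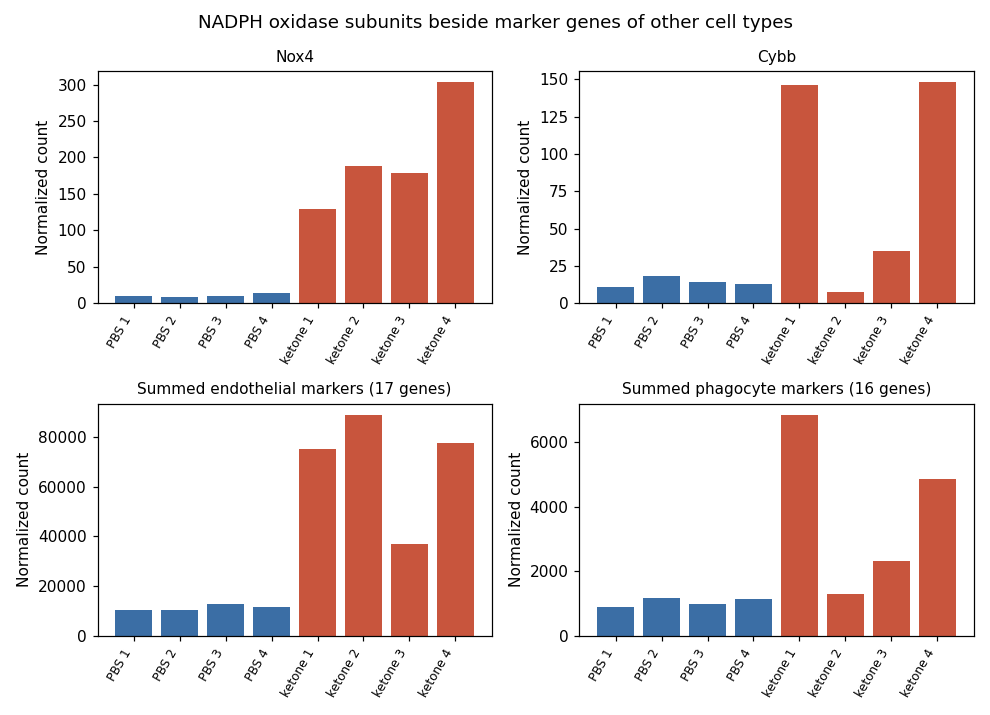
Normalized counts of Nox4 and Cybb in each library (top) above the summed normalized counts of 17 endothelial and 16 phagocyte (macrophage and neutrophil) markers (bottom), with PBS in blue and ketone in red. Nox4 is higher in all 4 ketone libraries, whereas Cybb and the phagocyte sum are high in ketone libraries 1 and 4 and lowest among ketone libraries in library 2.

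The ketone libraries differed among themselves in which genes were high or low. Ketone library 1 was the lowest ketone library for 11 of the 36 genes and the highest for 13, and the corresponding counts were 8 and 12 for library 2, 11 and 2 for library 3 and 6 and 9 for library 4. The genes lowest there were Nfe2l2, Hmox1, Gclc, Gclm, Txnrd1, Srxn1, Prdx1, Prdx6, Sod2, Gstm1 and Nox4. The genes highest there were Keap1, Nqo1, Blvrb, Gsr, Prdx2, Prdx4, Prdx5, Gpx1, Gpx4, Gsta4, Mgst1, Mgst3 and Cyba. The same library had the lowest sum of muscle stem cell markers, 298152 against 383299 to 420137 in the other ketone libraries, and the highest sums of myofiber and of macrophage and neutrophil markers. The part of these in the gene pattern was not tested. Without ketone libraries 1 and 2 together, 11 of the 36 genes were higher (30.6%) and 5 lower (13.9%), beside 16.2% and 17.7% of all genes tested in that fit.

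**Figure D4:**
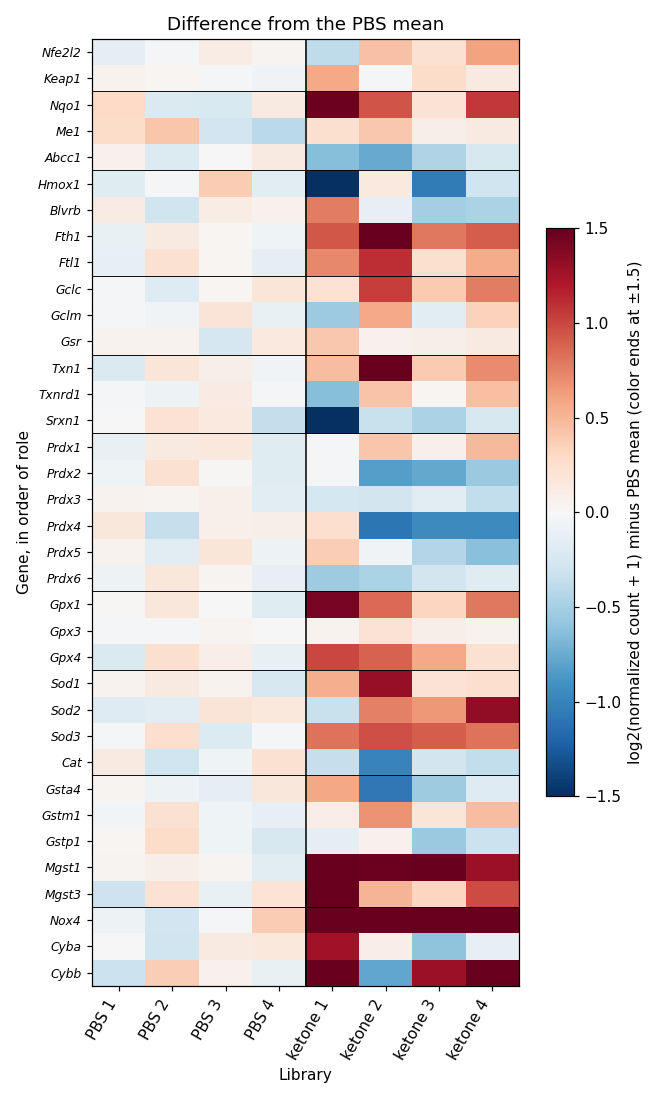
Log2 difference of each gene in each library from its PBS mean, on the log2(normalized count + 1) scale, with genes in order of role, red for higher and blue for lower values and colors ending at ±1.5. Mgst1, Nox4, Fth1 and Sod3 are red in all 4 ketone libraries, while Hmox1, Srxn1, Txnrd1 and Nfe2l2 are blue in ketone library 1.

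Other genes of the same systems were taken from 8 lists with 126 genes in all, of which 113 could be tested. Of these 7 were higher and 28 lower, with a median log2 change of -0.23, against the background of 12.8% in each direction given above. Without PBS library 1 these counts were 4 and 16, without PBS library 3 they were 4 and 18, and without PBS library 4 they were 4 and 21. Over all genes these fits gave 1272 higher and 1084 lower, 1345 and 1192, and 1393 and 1243, against 1800 and 1800 with every library. Of 14 genes listed under NADPH supply 0 were higher and 5 lower, with a median of -0.36. Not all of them make NADPH themselves, and Taldo1, 1 of the 5, does not. Idh2, the mitochondrial isocitrate dehydrogenase that makes NADPH, went from 5173 ± 705 to 1272 ± 602 normalized counts (means ± SD), a log2 change of -2.17 (limma adjusted p = 0.000208). The mitochondrial folate enzyme Mthfd2 was also lower, with a log2 change of -2.33. Of 19 other NRF2 targets 2 were higher and 5 lower, and the 2 with the smallest p were Abcc4, a drug and nucleotide exporter, at a log2 change of 1.25, and Gstm2 at -0.78. Of 15 other glutathione genes 0 were higher and 2 lower, namely Chac1, which degrades glutathione, at -1.92 and Slc25a39, a mitochondrial glutathione carrier, at -0.77. Of 21 other thioredoxin and glutaredoxin genes 2 were higher and 5 lower, led by Sesn2, a stress-induced brake on mTORC1, at -2.15 and Txndc5, an endoplasmic reticulum disulfide isomerase, at -1.11. Of 13 other peroxidases and oxidase subunits 3 were higher and 4 lower, with Pxdn, a matrix peroxidase, at -1.22 and Rac2, a GTPase of the phagocyte oxidase, at 2.15. Of 11 other heme and iron genes 0 were higher and 4 lower, with Aco1, the iron-sensing aconitase, at -0.88 and the iron transporter Slc11a2 at -1.02. Of 8 selenoprotein synthesis genes 0 were higher and 2 lower, Sephs1 at -0.58 and Eefsec at -0.43, and neither passed with the replicate number as a block (limma adjusted p = 0.0528 and 0.0755). Of 12 partners of NRF2 and its breakdown 0 were higher and 1 lower, the ubiquitin ligase scaffold Cul3 at -0.48. The calls of Cul3, Sephs1 and Eefsec lay near the threshold. Leaving out PBS library 1, 3 or 4, or else 1 or 2 of ketone, ended the call of Cul3 (limma adjusted p up to 0.126), that of Sephs1 ended without any 1 of PBS, or ketone library 2 or 4 (up to 0.132), and that of Eefsec without any 1 library other than ketone library 1 (up to 0.124).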

How the data were processed

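The 8 libraries were made by oligo(dT) priming with a low-input kit, per the labels' protocols. The submitters' processing notes name DESeq2, featureCounts, STAR, Subread and Trim Galore, and build mm10. The sources used here give no versions, annotation or strand setting. The signal deposited by the authors is a normalized count per gene, namely reads over a factor specific to the library. For each of them 100% of values were whole multiples of 1 read, within 0.001 of a read, so reads and depth were recovered. Of 25239 rows, 2 with a date in place of a symbol were left out. Values were taken as log2(normalized count + 1), which understates changes of low genes, and 14022 genes with a mean of at least 10 were fitted with limma 3.58.1 in R 4.3.3 (trend, no covariates). Adjusted p below 0.05 passed. The fit was tested on simulated data with the same dispersion in both groups, so that test does not cover the wider spread of the ketone libraries. Libraries of a group differed beyond counting noise (lowest chi-square over its degrees of freedom 13.6), so none was counted as a duplicate. Alternatives were pseudocounts of 0.5 and 5, no filter or a mean of at least 50, TMM, equal totals, quantile normalization, robust estimation, library weights, the replicate number as a block, recovered reads in DESeq2 1.42.0 and in edgeR 4.0.16, each library left out, and ketone libraries 1 and 2 left out together. All 36 members are named. In each other list the 2 passing genes with the smallest p are named, or its first gene, and of markers the most abundant and the sort markers. Members, lists and alternatives were chosen with earlier results of these data known.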

Additional observations from a re-analysis of the deposited data

Results flagged for a closer look

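A library was listed here where, among the 4 libraries of its group, its gap to the nearest other exceeded Dixon's 95% limit, which chance alone passes in about 1 of 20 groups. Of 72 groups of members 5 were so marked. Blvrb was at 570 in PBS library 2, against 733 to 764 in the other PBS libraries. Fth1 was at 124058 in ketone library 2, against 76975 to 84811 in the other ketone libraries. Prdx3 was at 1330 in PBS library 4, against 1534 to 1574. Prdx4 was at 1853 in ketone library 1, against 729 to 797. Cat was at 1044 in ketone library 2, against 1616 to 1726. Outside the members, Chac1 was at 200.3 in ketone library 1, against 262 to 271, and the summed myofiber markers were at 38351 in ketone library 1, against 6902 to 9293.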

How the results depend on the processing

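Of the 36 members 13 had the same call under all 21 alternatives, 13 that did not pass did so under at least 1, and no member that passed turned in direction. These counts were not made over all genes, so they show nothing particular to the members. Against 2 lower members (all genes 12.8%), 1 was lower with no filter (all genes 8.59%), with equal totals (10.5%), with quantile normalization (12.9%) and by edgeR (12%). DESeq2 gave 4 (all genes 13.7%), library weights 6 (17.8%) and leaving out ketone libraries 1 and 2 gave 5 (17.7%). With those libraries left out the groups did not overlap for 24 of 36 members and 7038 of the 13782 genes tested in that fit. Fewer libraries in a group leave fewer that can overlap. Leaving out each library in turn gave 6 to 12 members higher and 0 to 4 lower. Over all genes it gave 1272 to 1943 higher and 1084 to 2127 lower, of 13904 to 14085 tested. The groups did not overlap for 4194 to 5187 of these genes and for 13 to 18 of the 36 members. Other pathway genes were higher in 4 to 9 and lower in 16 to 30 cases, markers of other cell types higher in 53 to 61 and lower in 5 to 11, and muscle stem cell markers lower in 7 to 11.

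The direction turned for Des with quantile normalization (-0.10) and ranged from -0.054 to 0.12 without single libraries. Cyba turned with library weights (-0.14) and without ketone libraries 1 and 2 (-0.36), and ranged from -0.21 to 0.41 without single libraries. Pmp22 turned with library weights (0.079) and without ketone libraries 1 and 2 (0.23), and ranged from -0.240 to 0.019 without single libraries. Blvrb turned by edgeR (0.008) and DESeq2 (0.009), and ranged from -0.37 to 0.054 without single libraries. Gclm ranged from -0.12 to 0.25 and Txnrd1 from -0.059 to 0.30 in the same way. The cause was not tested.

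No pairing by replicate number was seen, with correlations of same-numbered deviations of 0.106, -0.011, 0.003 and -0.061. Of the PBS libraries number 1 alone matched its own number best. Such correlations cannot exclude a weak effect shared by libraries of the same number. With the replicate block 11 members were higher and 3 lower, beside 1781 and 1814 of all genes (12.7% and 12.9%). Strain entries that are doubtful and coincide with treatment, labels that do not tie libraries to animals, sorted cells with markers of other types, and as few as 7 reads for Cybb and 8 for Nox4 limit these values.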
